A study of Homo sapiens with 4 samples.

Results

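The miRNAs miR-221 and miR-222 were followed through quantitative PCR profiles of U2OS, a human osteosarcoma cell line. They were chosen by name, with both arms of each hairpin included, which gave 4 assays of 737 miRNA assays, named hsa-miR-221, hsa-miR-222, hsa-miR-221* and hsa-miR-222* on the plates and without the species prefix below. The study compared 4 RNA samples of the line, 1 per group. In the shDDX1 sample the cells had been infected with lentivirus carrying a short hairpin RNA against DDX1, and in the shNS sample with a control short hairpin RNA. Both infected cultures were selected with puromycin at 2 µg/ml. In the NCS sample U2OS cells had been exposed to neocarzinostatin, an enediyne that makes DNA double-strand breaks, for 6 h at 500 ng/ml, and in the untreated sample they had not. The labels name no infection for the NCS and untreated samples, no vehicle for the untreated sample and no number of hairpin sequences against DDX1. DDX1, a DEAD-box RNA helicase, was not measured here, so the depth of its knockdown is not analysed here. The title of the series gives the question of the first comparison, namely which primary miRNA transcripts need DDX1 for processing.

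miR-221 and miR-222 are cut from neighbouring hairpins of a shared transcript. Their guide strands repress CDKN1B, which encodes the cyclin-dependent kinase inhibitor p27, and they also repress CDKN1C and the receptor KIT. Lower p27 favours entry into the DNA synthesis phase, and the cluster is known for high levels in several solid tumours. In each hairpin the 3′ arm is the guide strand. The starred assays read the opposite, 5′ arm, which is usually degraded when the guide is loaded into Argonaute.

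The mature sequences are shown because the guides share their seed, the bases 2 to 8 that pair with targets, here in capitals. RefSeq places both genes on the minus strand of chromosome X in GRCh38.p14. The mature miR-221 guide lies at chrX:45746180-45746202, the miR-222 guide at chrX:45747036-45747056 and the miR-222 5′ arm at chrX:45747073-45747094.
miR-221-3p (assay miR-221): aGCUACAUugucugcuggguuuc
miR-222-3p (assay miR-222): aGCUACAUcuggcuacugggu
miR-222-5p (assay miR-222*): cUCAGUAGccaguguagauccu
The guides are identical over their first 8 bases, and 11 of 21 positions match when they are set side by side without gaps. Of 2370 human mature miRNAs in the table, these 2 carry the seed gcuacau. The seed of miR-222-5p was found in 1 mature miRNA, miR-222-5p itself, so its assay reads a strand with other targets. The mature miR-221-5p is named only.

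The hairpins are shown because the study concerns their release from the primary transcript. Capitals mark the mature arms of the table.
MIR221: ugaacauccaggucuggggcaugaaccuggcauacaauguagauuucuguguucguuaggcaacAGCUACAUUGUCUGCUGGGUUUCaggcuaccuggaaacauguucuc
MIR222: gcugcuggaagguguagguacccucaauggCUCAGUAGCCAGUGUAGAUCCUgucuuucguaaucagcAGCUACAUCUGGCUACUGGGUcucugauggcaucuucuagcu
MIR221 spans chrX:45746157-45746266 and MIR222 chrX:45747015-45747124, with 748 bases between them. Both lie within the span of MIR222HG, a long noncoding RNA gene at chrX:45745214-45770267. The exons of MIR222HG were not used here.

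The unit throughout is the quantification cycle (Ct), the PCR cycle at which a well passes the detection threshold, so a lower Ct means more template. A Ct under 35 was taken as quantified. Within each sample, levels were set relative to the mean Ct of the 499 miRNA wells under that limit in all 4 samples, which was 26.1 in shDDX1, 25.8 in shNS, 29.4 in NCS and 30.1 in untreated cells. Because the pairs differ in that mean, ratios were taken within a pair only. With 1 sample per group no difference has a replicate check, and no p-value was computed. A change in some of the cells cannot be told apart from a smaller change in all of them. Of the miRNA markers, all 10 mesenchymal ones were quantified in every sample, with a median Ct between 22.5 and 26.6. The 5 blood cell markers came later, with a median of 27.1 in shDDX1, 26.5 in shNS, 32.5 in NCS and 32.2 in untreated cells. The 4 muscle markers were later still, with a median of 29.3 in shDDX1, 28.5 in shNS and 33.6 in NCS, where 3 of the 4 were quantified. In untreated cells 1 of the 4 was quantified, at 34.9. The 3 neuronal markers were also quantified in every sample, with a median of 23.5 in shDDX1, 22.6 in shNS, 25.3 in NCS and 29.4 in untreated cells. In NCS that was earlier than the mesenchymal median of 26.1. The earliest neuronal marker read 21.1 in shDDX1, 18.5 in shNS, 25.2 in NCS and 27.5 in untreated cells. The liver marker miR-122 was quantified in every sample too, between 28.6 and 33.4.

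The guide strands were among the earliest miRNA signals in every sample, and the opposite arms were not. miR-221 read Ct 18.6 in shDDX1 and 17.8 in shNS, and 20.8 in NCS and 21.3 in untreated cells. Of 740 miRNA wells, 6 read earlier than miR-221 in shDDX1, 8 in shNS, 5 in NCS and 2 in untreated cells, and in untreated cells 0 of those were on its own panel. miR-222 read 20.7 in shDDX1 and 20.4 in shNS, and 22.7 in NCS and 23.7 in untreated cells. Between 23 and 42 wells were earlier than miR-222. miR-221*, the opposite arm of miR-221, read 27.7 in shDDX1 and 28.6 in shNS, and 30.7 in NCS and 31.8 in untreated cells. miR-222*, the opposite arm of miR-222, read 26.3 in shDDX1 and 26.5 in shNS, and 30.5 in NCS and 29.8 in untreated cells. Between 199 and 467 wells were earlier than a starred assay. The order miR-221, miR-222, miR-222*, miR-221* was the same in all 4 samples. In NCS the last 2 differed by 0.21 cycles, near the pooled SD of repeated calibrator wells within a plate, 0.191 cycles. Assays may amplify with different efficiency, so Ct orders assays rather than molecules.

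**Figure D1:**
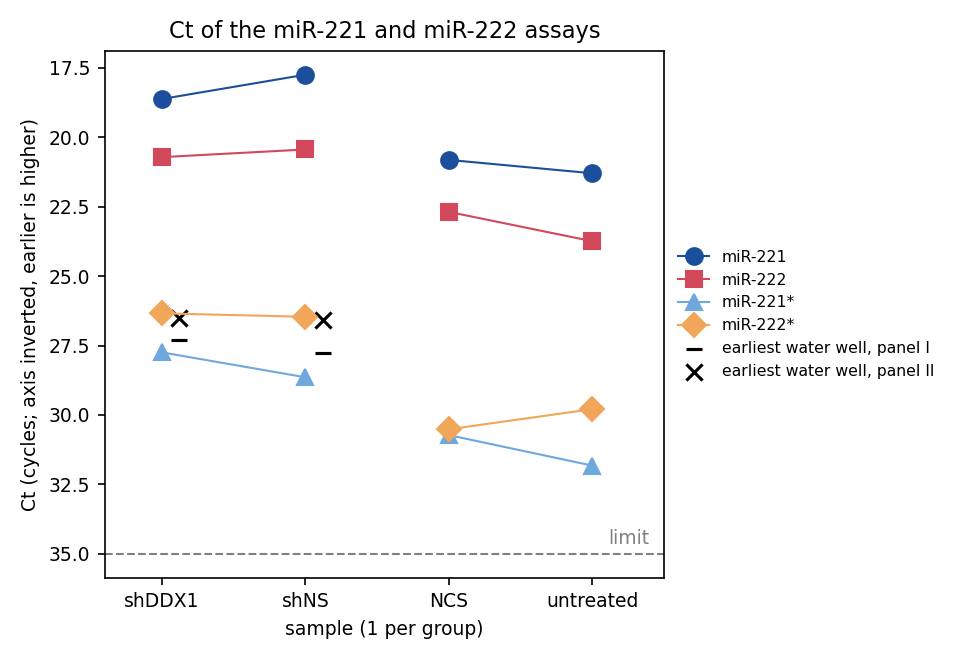
Ct of each assay (inverted axis, in cycles) in the 4 samples, 1 point per sample, with lines joining the samples of a pair. The guides miR-221 and miR-222 lie between Ct 17.8 and 23.7, while miR-221* and miR-222* lie between 26.3 and 31.8, close to the earliest water wells in shDDX1 and shNS.

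The starred assays came close to the signal of wells without template in the infected cells. On panel II, which holds both starred assays, the earliest water well read 26.5 in shDDX1 and 26.6 in shNS. miR-222* was 0.16 cycles earlier than that well in shDDX1 and 0.13 in shNS, and miR-221* was 1.25 cycles later in shDDX1 and 2.05 in shNS. On panel I the guides were at least 6.57 cycles earlier than the earliest water well. In NCS and untreated cells 0 of 9 water wells gave a Ct. The part of such background in the starred readings was not tested.

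In shDDX1 cells both guides were within 2-fold of shNS cells, and of the 4 assays only miR-221* passed 2-fold. miR-221 had a log2 ratio of shDDX1 over shNS of -0.57, a level 1.48-fold lower. miR-222 had a log2 ratio of 0.03, close to equal levels. Among the opposite arms, miR-221* was 2.30-fold higher, at 1.20, and miR-222* stood at 0.43. Thus 1 of 4 assays passed 2-fold, where 28.4% of 716 quantified miRNAs did so in either direction, 11.0% higher and 17.3% lower. The technical SD of a log2 ratio, taken from 7 assays present on both panels, was 0.38 here. It holds the spread between wells and any shift between the panels, and none between cultures. The ratio of miR-221* exceeded that SD, those of miR-221 and miR-222* exceeded it by less, and that of miR-222 was inside it. In both samples miR-221* read later than the earliest water well of its panel, and the spread of such wells was not measured separately.

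The panels differed as a whole, and the members followed their panels in part. The guides lie on panel I, where the median log2 ratio of shDDX1 over shNS was -0.42, and the starred assays on panel II, where it was 0.46. On panel I, 160 wells were below miR-221 and 205 above it, so miR-221 lay near the middle of its panel. miR-222 had 263 wells below and 102 above. On panel II, miR-221* had 310 wells below and 42 above, and miR-222* had 168 below and 184 above. miR-221* was therefore the member farthest from the bulk of its plate. The part of the panel difference in these ratios was not tested.

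Over 8 ways of scaling, only miR-221* kept its sign in the knockdown. Its log2 ratio ran from 0.53 against small RNAs to 1.20, above 0 in 8 of 8 and past 2-fold in 2. With each panel centred separately it was 0.77, or 1.70-fold higher, and 0 of 4 members passed 2-fold, beside 23.5% of all quantified miRNAs, 7.82% higher and 15.6% lower. Over the 8 scalings the share of all miRNAs past 2-fold ran from 20.8% to 39.2%. miR-221 ran from -1.24 against small RNAs to 0.34 after subtraction of neighbouring wells. It passed 2-fold lower in 2 scalings, against small RNAs and against reference miRNAs. miR-222 ran from -0.64 to 0.58 and miR-222* from -0.24 to 0.43, each above 0 in 4 and below 0 in 4, and neither passed 2-fold. The scalings reuse the same Ct readings of each assay, so they are not repeated measurements in either comparison.

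**Figure D2:**
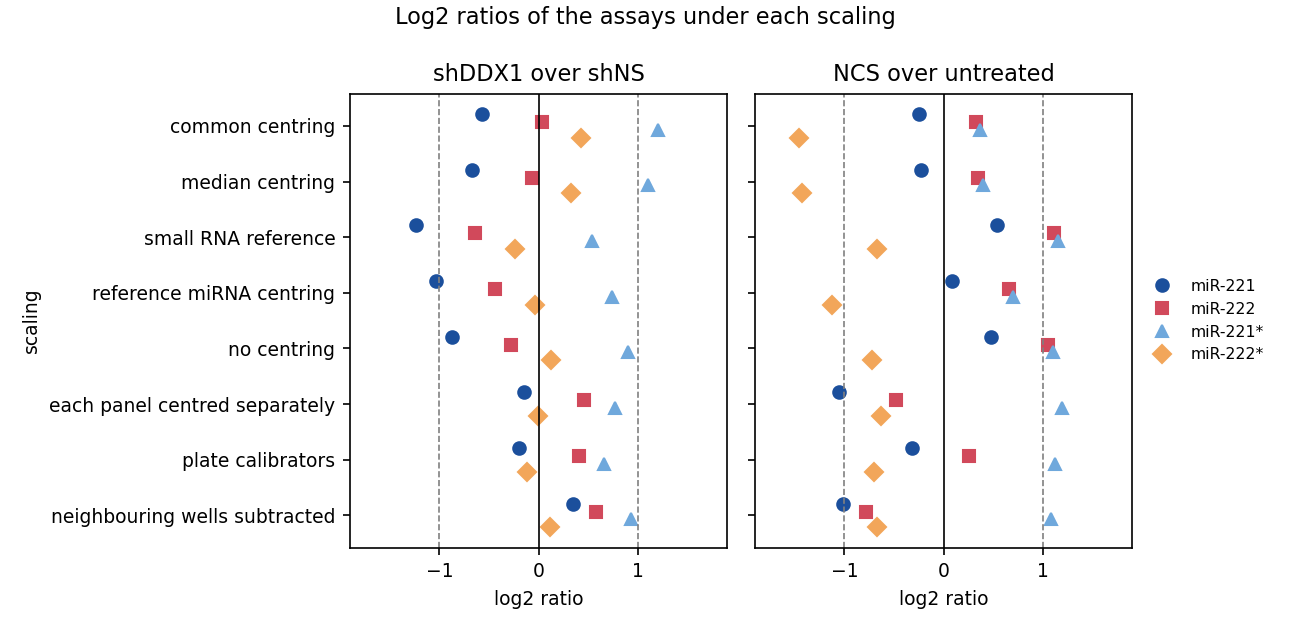
Log2 ratio of each assay (x axis) under 8 scalings (rows), for shDDX1 over shNS and for NCS over untreated. Dashed lines mark 2-fold. miR-221* lies right of 0 in every row of both comparisons, and miR-222* left of 0 in every row after NCS, from -1.46 to -0.63.

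In the knockdown the wells around each guide had lower ratios than the guide itself. miR-221 sits in column 19 of panel I, and the 8 wells adjoining it had a median log2 ratio of -0.75. miR-222 sits in column 15 of the same panel, where 7 quantified adjoining wells had a median of -0.21. Around miR-221* the median was 0.64 over 7 wells and around miR-222* -0.32 over 8. Relative to the 3 synthetic calibrator wells of its own plate, the Ct of miR-221 lay at 0.14 cycles in shDDX1 and -0.05 cycles in shNS, where a positive value is later. Those values differ by about the pooled SD of calibrator wells.

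After NCS the guides were also within 2-fold of untreated cells, and miR-222* was lower. miR-221 had a log2 ratio of NCS over untreated of -0.25, and miR-222 one of 0.32. miR-221* stood at 0.37. miR-222* was 2.75-fold lower, at -1.46. So 1 of 4 assays passed 2-fold, where 39.2% of 498 quantified miRNAs did so in either direction, 16.9% higher and 22.3% lower. The technical SD of a log2 ratio was 0.79 in this pair, or 0.35 when miR-423-5p, whose wells disagreed, is left out of the 7 repeated assays. The ratios of miR-221, miR-222 and miR-221* lay inside the larger value.

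Within their own panels miR-221* again stood high, and the other members stood lower than in the knockdown. The panel I median after NCS was 0.30, and miR-221 had 76 wells below it and 176 above. miR-222 had 128 below and 124 above, the middle of the panel. On panel II, with a median of -0.84, miR-221* had 233 wells below and 14 above. miR-222* had 49 below and 198 above. The arms of miR-221 thus stood on opposite sides of their panels, the guide low and the opposite arm high.

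**Figure D3:**
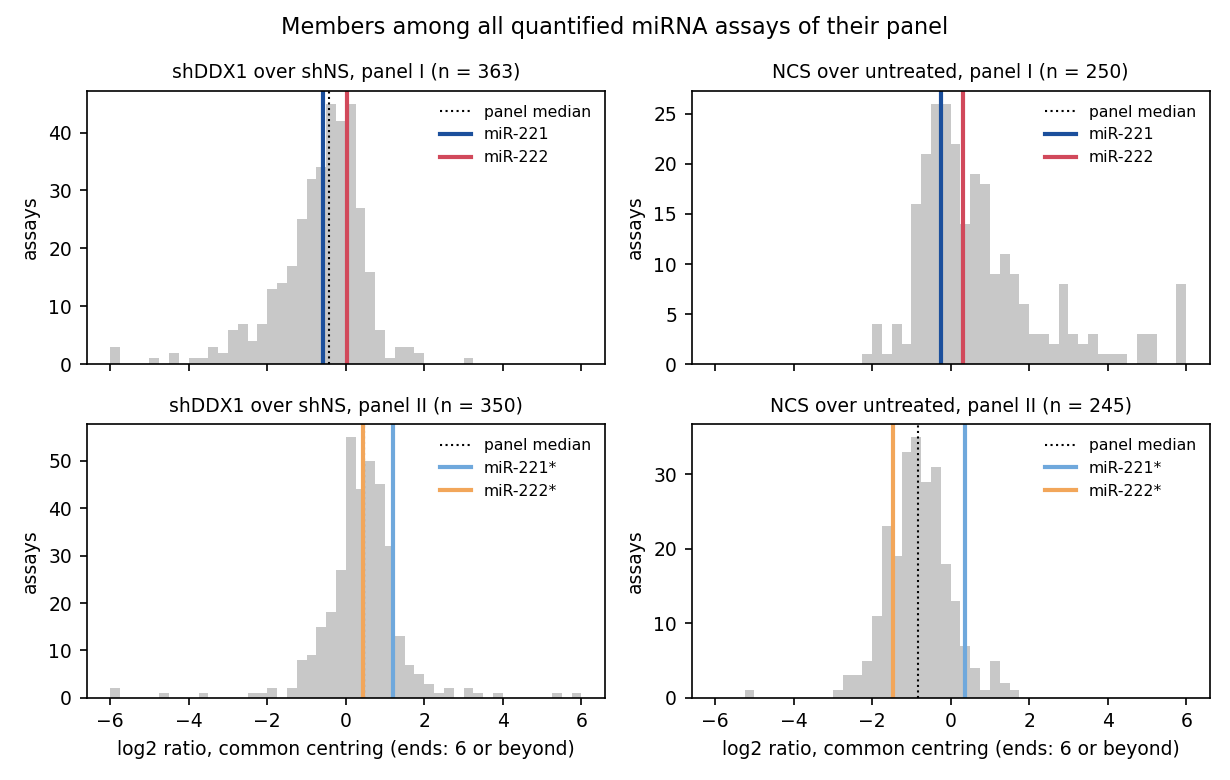
Number of miRNA assays (y axis) by log2 ratio under the common centring (x axis), for each comparison and panel. Dotted lines are panel medians and coloured lines the members. miR-221* lies right of its panel median in both comparisons, at 1.20 and 0.37, and miR-222* left of it after NCS, at -1.46.

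Scaling decided which members passed 2-fold after NCS. miR-221* was above 0 in 8 of 8 scalings, from 0.37 to 1.19, and past 2-fold in 5. miR-222* was below 0 in 8 of 8, from -1.46 to -0.63, and past 2-fold in 3. With each panel centred separately miR-221* was 2.28-fold higher and miR-222* 1.55-fold lower, and 2 of 4 members passed 2-fold, beside 34.1% of all quantified miRNAs, 13.7% higher and 20.5% lower. Over the 8 scalings that share ran from 26.3% to 39.2%. miR-221 was above 0 in 3 scalings and below 0 in 5. It was 2.08-fold lower with panels centred separately and 2.01-fold lower after subtraction of neighbouring wells. miR-222 ran from -0.78 to 1.11, above 0 in 6 and below 0 in 2, and past 2-fold higher in 2.

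The wells of panel I differed by plate position. After NCS, panel I had a median log2 ratio of 1.21 in columns 7 to 18, the middle of the plate, and of -0.16 in the outer columns. miR-222 lies in the middle columns and miR-221 in the outer ones. The quantified wells adjoining miR-222 had a median of 0.71 and those adjoining miR-221 a median of 0.17, over 5 wells each. In the knockdown the middle and outer columns of panel I had medians of -0.82 and -0.22, and there the guides ran the other way, with miR-222 above miR-221. The wells adjoining the guides ran the same way as the guides, with medians of -0.75 around miR-221 and -0.21 around miR-222. The part of position in the ratios was not tested. Relative to its plate calibrators miR-221 lay at 0.07 cycles in NCS and -0.25 cycles in untreated cells, so over the 4 samples its distance from the calibrators varied between -0.25 and 0.14 cycles.

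miR-221 and miR-222 share a panel, so the distance between them does not depend on any centring of samples or panels. miR-222 read 2.09 cycles later than miR-221 in shDDX1 and 2.69 cycles later in shNS. It read 1.87 cycles later in NCS and 2.45 cycles later in untreated cells. The guides were thus closer together in shDDX1 and in NCS, each against its own control. Written as a difference in log2 ratio, miR-221 minus miR-222, this was -0.60 for shDDX1 over shNS and -0.57 for NCS over untreated. The technical SD of such a difference was 0.54 and 1.12. Both values hold any shift between the panels, which cancels between assays of 1 panel. The 1.12 also rests on miR-423-5p, without which the SD of a single log2 ratio after NCS was 0.35 against 0.79. After subtraction of neighbouring wells the differences were -0.24 and -0.23. Unstarred assays of different hairpins within 10 kb of each other on a strand, guide or not, with both assays on 1 panel, gave a median absolute difference of 0.69 over 217 pairs in the knockdown and 0.85 over 93 pairs after NCS, the cluster included. Of these, 97 and 30 pairs differed by less than miR-221 and miR-222. Such pairs share assays and are not independent. They were not matched to the guides in Ct, and pairs with an assay past the Ct limit drop out. The ranks therefore do not set the guides beside equally early wells.

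The opposite arms, both on panel II, also read closer together in shDDX1 and in NCS than in their controls. miR-221* read 1.40 cycles later than miR-222* in shDDX1 and 2.18 cycles later in shNS. It read 0.21 cycles later in NCS and 2.03 cycles later in untreated cells. The difference in log2 ratio, miR-221* minus miR-222*, was 0.77 for the knockdown and 1.82 for NCS, beside a technical SD of 0.54 and 1.12. With neighbouring wells subtracted the differences were 0.81 and 1.75.

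Within a hairpin, the arms were compared across panels. miR-221* read 9.12 cycles later than miR-221 in shDDX1 and 10.9 cycles later in shNS, and 9.91 cycles later in NCS and 10.5 cycles later in untreated cells. miR-222* read 5.63 cycles later than miR-222 in shDDX1 and 6.02 cycles later in shNS, and 7.82 cycles later in NCS and 6.04 cycles later in untreated cells. The arm gap of miR-221 was smaller in shDDX1 and in NCS than in their controls, and that of miR-222 was larger in NCS and smaller in shDDX1. As the panels shift as a whole, each difference was set beside the other hairpins with the unstarred arm on panel I and the starred arm on panel II, where the rank does not depend on centring of samples or panels. In the knockdown miR-221 minus miR-221* was -1.77, and 17 of 90 such pairs, the cluster included, lay lower, with a median of -0.87 and quartiles of -1.47 and -0.22. miR-222 minus miR-222* was -0.40, with 62 pairs lower. After NCS miR-221 minus miR-221* was -0.62, and 3 of 61 pairs lay lower, with a median of 1.33 and quartiles of 0.51 and 2.15. miR-222 minus miR-222* was 1.78, with 40 pairs lower. With each panel centred separately the miR-221 differences were -0.91 and -2.25 and the miR-222 differences 0.46 and 0.15. Relative to the plate calibrators the miR-221 differences were -0.85 and -1.44 and the miR-222 differences 0.52 and 0.95. After subtraction of neighbouring wells they were -0.59 and -2.09 for miR-221, and 0.46 and -0.11 for miR-222. The technical SD of such a difference was 0.54 and 1.12. The pairs were not matched for plate position. After NCS the outer wells of panel I, miR-221 among them, had the lower median, -0.16 against 1.21. The part of position in these ranks was not tested. The spread of an arm gap between cultures was not measured here.

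**Figure D4:**
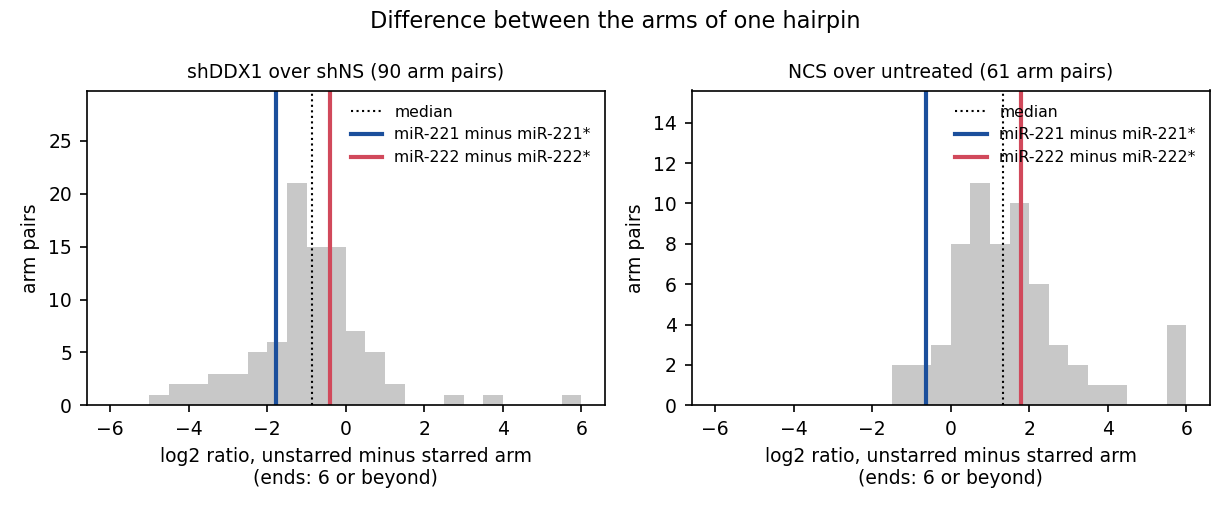
Number of hairpins (y axis) by the log2 ratio of the unstarred arm minus that of the starred arm (x axis), for pairs with arms on panels I and II. miR-221 lies at -1.77 of 90 pairs in the knockdown and at -0.62 of 61 pairs after NCS, left of the median in both, and miR-222 lies right of it, at -0.40 and 1.78.

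Other miRNAs of the same cell cycle step were counted from lists. Of 5 miRNAs reported to repress CDKN1B besides the cluster, 1 was at least 2-fold lower in shDDX1 and 0 were higher, where 17.3% of all quantified miRNAs were lower and 11.0% higher. Their median log2 ratio was -0.04, beside 0.04 over all quantified miRNAs. Scaling turned this count round, to 0 lower and 1 higher with each panel centred separately, at a median of 0.39. Subtraction of neighbouring wells gave the same count, at 0.37, while plate calibrators gave 0 and 0. Per panel 15.6% of all quantified miRNAs were lower and 7.82% higher. In either direction 20.8% of all passed with neighbouring wells subtracted and 22.9% with plate calibrators. Of the 5, the lowest under the common centring was miR-196a at -1.21 and the highest miR-181a at 0.61. After NCS 3 of the 5 passed 2-fold upward and 1 downward, where 16.9% of all were higher and 22.3% lower, and the median was 1.68 beside -0.38 over all. miR-196a led at 4.87 and miR-181a was lowest at -1.17. Of these 5 assays, 4 lie in the middle columns of panel I. With each panel centred separately 2 were higher and 1 lower after NCS, where 13.7% and 20.5% of all were. Plate calibrators and subtraction of neighbouring wells each left 3 higher and 1 lower, at medians of 1.62 and 1.20. In either direction 26.3% and 29.3% of all passed under these scalings.

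miRNAs that repress CDKN1A, the gene for the related inhibitor p21, were 0 of 6 lower and 0 of 6 higher in shDDX1, beside 17.3% and 11.0% of all, from miR-17 at -0.15 to miR-106a at 0.50. After NCS 3 of 5 were higher and 0 lower, beside 16.9% and 22.3% of all, from miR-106a at -0.68 to miR-17 at 1.47. With panels centred separately 0 were then higher and 1 lower, beside 13.7% and 20.5% of all. Subtraction of neighbouring wells gave the same count and plate calibrators 3 higher and 0 lower, beside 29.3% and 26.3% of all in either direction. miRNAs that act in the other direction, on cyclins and kinases of the same step, were lower in shDDX1 for 9 of 19 assays and higher for 0, beside 17.3% and 11.0% of all, at a median of -0.91. After NCS 10 of 15 were higher and 0 lower, beside 16.9% and 22.3% of all, at a median of 1.70. The rest of the list had no Ct under 35 in untreated cells. Their lowest and highest members were miR-26b at -2.89 and miR-34b at 0.79 in the knockdown, and miR-15b at -0.62 and let-7a at 7.71 after NCS. The let-7a value rests on a Ct of 24.0 in NCS and 32.5 in untreated cells, in a middle column. The other let-7 assays of the list quantified after NCS lay between -0.41 and 1.39. Of the 19 assays 11 lie in the middle columns. With panels centred separately 8 were lower and 2 higher in shDDX1, where 15.6% and 7.82% of all were, and 7 higher and 4 lower after NCS, where 13.7% and 20.5% of all were. With neighbouring wells subtracted 5 were lower and 0 higher in shDDX1, and 6 higher and 0 lower after NCS. Under that scaling 20.8% of all passed 2-fold in either direction in the knockdown and 29.3% after NCS.

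Other miRNAs encoded on chromosome X were set beside the cluster. Of 77 such assays, 74 were quantified in the knockdown, of which 12 passed 2-fold downward and 7 upward, or 16.2% and 9.46%, near the 17.3% and 11.0% of all miRNAs. The median log2 ratio was -0.02, between miR-888 at -2.71 and miR-1184 at 3.01. After NCS 37 were quantified, of which 8 passed downward and 4 upward, or 21.6% and 10.8%, beside 22.3% and 16.9% of all. The median was -0.15, between miR-106a* at -1.96 and miR-545 at 2.72. Against plate calibrators 2 passed downward and 4 upward after NCS, and with neighbouring wells subtracted 4 and 3. Of all quantified miRNAs, 26.3% and 29.3% passed in either direction under these scalings.

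The assays most like each guide were sought over all 4 samples, by the root mean square difference of centred levels after each assay's own mean was removed. This measure includes the difference between the pairs as well as that within them. Of 495 assays, miR-204, miR-151-3p, miR-505, miR-532-5p and miR-519c-5p were nearest to miR-221, at 0.08 to 0.14 log2 units. miR-140-5p, miR-125a-5p, miR-139-5p, miR-502-5p and miR-93 were nearest to miR-222, at 0.08 to 0.12. miR-222 ranked 45 for miR-221, at 0.32, and miR-221 ranked 47 for miR-222. The members of the cluster were therefore not each other's nearest assays. Their centred levels had an SD over the 4 samples of 0.57 for miR-221, 0.66 for miR-222, 0.64 for miR-221* and 0.62 for miR-222*, and between 133 and 180 of 496 assays had a smaller one.

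The authors' deposited fold table gives shDDX1 over shNS as 0.546 for miR-221, 0.827 for miR-222, 1.86 for miR-221* and 1.09 for miR-222*. For NCS over untreated the authors' deposited table gives 1.37 for miR-221, 1.95 for miR-222, 2.11 for miR-221* and 0.598 for miR-222*. In the authors' deposited table of shifted Ct, the guides had been moved by -0.789 cycles and the starred assays by 0.789 in each infected sample, so these folds equal the ratios without centring. In the NCS pair the shift was -3.42 in NCS and -3.45 in untreated cells for miR-221, and -3.34 in NCS and -3.43 in untreated cells for miR-222. It was -0.42 in NCS and -0.44 in untreated cells for miR-221*, and -0.48 in NCS and -0.50 in untreated cells for miR-222*. The unequal shifts changed the log2 ratios of the members by less than the technical SD. By these values 0 of 4 members passed 2-fold in the knockdown, beside 31.5% of 734 miRNAs, and 1 of 4, miR-221*, after NCS, beside 47.7% of 707.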

How the data were processed

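Mature miRNAs were measured by SYBR Green PCR on a human 2-panel plate set after Trizol extraction, per the labels. Ct values were deposited, handled as scores with no fixed range, for 768 wells per sample. The authors also deposited shifted Ct scores and a linear ratio (fold) of each sample over its control. From the deposited Ct, levels were minus Ct, centred on the 499 of 740 miRNA wells under Ct 35 in all 4 samples, and a log2 ratio was a difference of levels within a pair, with 1 cycle as 1 doubling. Wells of the 3 miRNAs on both panels were averaged. No test was possible with 1 sample per group; technical spread came from repeated wells. Calls were made at 2-fold. Neighbouring wells were those within 2 rows and 2 columns. The 8 scalings are the common mean, the median, small RNAs, reference miRNAs, none, per panel, plate calibrators and neighbouring wells. Ct limits of 37 and 32, no limit, thresholds of 1.5-fold and 4-fold and the deposited tables were also tried. The text names the members, the lowest and highest member of each list, and the 5 assays most like each guide. The members, lists, scalings and plate zones were chosen with earlier results of these data known. Assays were matched to RefSeq by mature name, so that miR-221 is miR-221-3p; 3 mature arms of the 2 hairpins had a sequence. Python 3.11.15, numpy 2.4.6 and pandas 2.3.3 were used.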

Additional observations from a re-analysis of the deposited data

Results flagged for a closer look

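Wells with water in place of template gave signal in the infected cells, outside the miRNA measurement. On panel II the earliest one read Ct 26.5 in shDDX1 and 26.6 in shNS, and on panel I 27.3 in shDDX1 and 27.8 in shNS. A Ct was given by 7 of 9 water wells in shDDX1 and 6 of 9 in shNS, and by 0 of 9 in NCS and in untreated cells. Both starred assays share panel II with the earlier wells.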

How the results depend on the processing

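No paired analysis was possible because there is only 1 sample in every group. Values past the technical SD of a log2 ratio from the common centring are given here; the cause was not tested. In the knockdown, the small RNA reference gave -1.24 for miR-221, -0.64 for miR-222, 0.53 for miR-221* and -0.24 for miR-222*. Reference miRNAs gave -1.03, -0.43, 0.74 and -0.038 in the same order, and each panel centred separately -0.15, 0.45, 0.77 and -0.0084. Plate calibrators gave 0.65 for miR-221* and -0.12 for miR-222*, and subtraction of neighbouring wells 0.34 for miR-221 and 0.58 for miR-222. After NCS, centring per panel gave -1.05, -0.48, 1.19 and -0.63 in that order, and subtraction of neighbouring wells -0.78 for miR-222. These passed the SD of 0.79, which rests on miR-423-5p. More values passed the 0.35 found without that assay. The small RNA reference gave 0.54, 1.11, 1.15 and -0.67 in that order, and no centring 0.48, 1.06, 1.10 and -0.72. The deposited shifted Ct and folds gave 0.46, 0.96, 1.08 and -0.74. Plate calibrators gave 1.13 for miR-221* and -0.70 for miR-222*. Subtraction of neighbouring wells gave -1.01 for miR-221, 1.09 for miR-221* and -0.67 for miR-222*. In the knockdown 1 assay passed 2-fold, against 0 without centring, per panel, with plate calibrators, after subtraction of neighbouring wells, in both deposited tables and at 4-fold. That assay was miR-221*, higher, under the common centring, but miR-221, lower, with small RNAs and with reference miRNAs. After NCS 1 assay passed, against 2 with small RNAs, without centring, per panel and after subtraction of neighbouring wells, and 0 at 4-fold. It was miR-222*, lower, under the common centring, but miR-221*, higher, with plate calibrators and in both deposited tables. An equal count thus did not mean the same assay or direction. The difference between the guides cannot change with centring, calibrators or Ct limits, as both share a panel. Subtraction of neighbouring wells took it to -0.24, against -0.60, in the knockdown and to -0.23, against -0.57, after NCS, and both deposited tables gave -0.51 after NCS. Centring on the median and other Ct limits moved no member by more than its technical SD. The starred assays lay near water wells in infected cells, and the part of that signal was not tested.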
